A study of Eragrostis tef with 16 samples.

Results

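The values of 5 tef genes described as acting on cutin were followed in root and shoot under low and optimum calcium. They are the paired copies of cytochrome P450 86A4 (CYP86A4, Et_7A_053112 and Et_7B_055862), long chain acyl-CoA synthetase 2 (LACS2, Et_6B_048779) and the paired copies of probable lysophospholipase BODYGUARD 3 (Et_2A_015401 and Et_2B_019607). They were taken by gene ID and are 5 of the 5824 genes with values. They were chosen by their difference between low- and optimum-calcium shoot in earlier results of the same libraries. Their shoot values are therefore given as a description with no test, and their root contrast is tested. The earlier results covered the root libraries too, so the root values may have been known at the choice.

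Tef (Eragrostis tef) is an allotetraploid cereal, so most genes can be present as copies from both parental genomes. The 16 libraries came from hydroponic plants and form 4 groups of 4, which are low-calcium root, optimum-calcium root, low-calcium shoot and optimum-calcium shoot. The labels give no calcium concentration, no age or variety, and no number of plants behind a library. The labels call the libraries replicates without naming separate plants, so p-values measure the spread between these samples, which may be technical. The low-calcium library numbers all come before the optimum-calcium ones, so an effect of that order and an effect of calcium cannot be told apart. The title of low-calcium shoot replicate 4 names both tissues, and the library was placed by its source name. The genes are headed as target genes, and whether mRNA or small RNA reads were counted on them is unknown. Levels are therefore called reads here, and the values are log2(scaled reads + 1) as deposited.

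Cutin is the polyester that forms the framework of the plant cuticle, the water-repelling layer over the epidermis of shoots. Its monomers are fatty acids that are activated to CoA esters by acyl-CoA synthetases, hydroxylated at the end of the chain by cytochromes P450 of the CYP86 family, joined to glycerol by acyltransferases, exported, and linked outside the cell. In Arabidopsis, CYP86A4 makes cutin monomers of the flower, LACS2 activates fatty acids for cutin, and BODYGUARD is an alpha/beta-hydrolase-fold protein of the epidermis needed for an intact cuticle.

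Recovered reads on the listed genes ranged from 1.20 to 2.02 Mreads (megareads) in low-calcium root, 2.32 to 3.44 Mreads in optimum-calcium root, 1.82 to 2.10 Mreads in low-calcium shoot and 2.63 to 2.85 Mreads in optimum-calcium shoot. A single read was worth a log2 value of 0.63 to 1.43, depending on the library. Summed scaled reads of 12 green tissue markers (photosystem and chlorophyll-binding genes among them) were 1559 to 1698 in low-calcium root and 832 to 1524 in optimum-calcium root. They were 155227 to 294940 in low-calcium shoot and 223772 to 362635 in optimum-calcium shoot. The 6 root markers are all described as nicotianamine synthases or metal-nicotianamine transporters, so their sum is a narrow measure of root tissue. Summed root markers (6 genes) were 6413 to 43330 in low-calcium root, 22511 to 65987 in optimum-calcium root, 2645 to 4512 in low-calcium shoot and 2732 to 6248 in optimum-calcium shoot, with none of the 6 at 0 reads in any group. Both sums thus stood apart between the tissues as labelled, that of the root markers without being absent from shoot. Single genes did not all stand apart. Low-calcium root and low-calcium shoot overlapped for both nicotianamine synthase 3 genes (Et_5A_042763 and Et_5B_045489) and for a metal-nicotianamine transporter (Et_7B_055075, log2 values 10.20 to 11.74 and 9.96 to 10.86). Of the green markers, Et_2B_022145 overlapped between optimum-calcium root and optimum-calcium shoot.

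In shoot all 5 genes had between 0 and 5 reads in each optimum-calcium library and between 54 and 414 reads in each low-calcium library. Neither range of log2 values reached the other for any of the 5, where 14.1% of all genes had every low-calcium shoot library above every optimum-calcium one and 39.4% passed the limma test in either direction. Since the choice of members used this contrast, nothing is read from these shares. In these bulk samples, fewer cells of a type and less RNA per cell cannot be told apart.

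CYP86A4, the fatty acid hydroxylase, was close to undetected in optimum-calcium shoot. The 7A copy, Et_7A_053112, had log2 values of 7.92, 8.18, 6.41 and 8.73 in low-calcium shoot replicates 1 to 4, against 0, 0, 1.09 and 0.89 in optimum-calcium shoot. The 7B copy, Et_7B_055862, had 8.17, 8.16, 6.23 and 8.75 in low-calcium shoot, against 0, 1.57, 1.09 and 1.83 in optimum-calcium shoot. Each low-calcium library was more than 4 log2 units above each optimum-calcium library, and low-calcium replicate 3 was the lowest of its group for both copies. Summed over 4 libraries the 7A copy had 887 reads in low-calcium shoot and 2 in optimum-calcium shoot, a ratio of 536 on the deposited scale (exact 95% interval by Clopper-Pearson 148 to 4435, which covers counting error only). The 7B copy had 924 and 6 reads, a ratio of 186 (85.2 to 509).

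In root the same copies had low but measurable reads at both calcium levels. Et_7A_053112 had log2 values of 5.70, 4.86, 5.23 and 5.48 in low-calcium root, against 4.33, 3.19, 4.44 and 3.44 in optimum-calcium root. Et_7B_055862 had 4.98, 4.44, 4.40 and 4.47 in low-calcium root, against 3.81, 2.91, 4.07 and 2.92 in optimum-calcium root. The groups did not overlap for either copy, and the distance between them was much smaller than in shoot. The reads behind these values numbered 27 to 40 a library in low-calcium root and 12 to 30 in optimum-calcium root for the 7A copy, and 18 to 22 and 8 to 23 for the 7B copy.

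LACS2, which activates the fatty acid, had no such root signal. Et_6B_048779 had log2 values of 7.96, 7.02, 6.06 and 8.33 in low-calcium shoot, against 0, 0.99, 1.09 and 0 in optimum-calcium shoot (667 and 2 reads in all, ratio 403, interval 111 to 3336). In root it had 1.43, 0, 0.94 and 1.08 under low calcium, against 0, 0.63, 1.25 and 0.86 under optimum calcium, which is 3 and 4 reads over all libraries. Low-calcium shoot was thus the one group of the 4 in which LACS2 had more than 2 reads in a library. At this depth no root difference was detectable, whichever way it might go.

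BODYGUARD 3, the hydrolase-fold protein, was read in every optimum-calcium shoot library, with 1 to 5 reads. The 2A copy, Et_2A_015401, had log2 values of 8.05, 8.30, 6.67 and 8.37 in low-calcium shoot, against 1.56, 2.57, 1.09 and 1.83 in optimum-calcium shoot. The 2B copy, Et_2B_019607, had 8.83, 8.52, 6.98 and 8.75 in low-calcium shoot, against 2.29, 2.57, 2.13 and 2.14 in optimum-calcium shoot. Both copies showed the CYP86A4 arrangement, with replicate 3 again the lowest of the low-calcium libraries. The read ratios were 94.4 (52.5 to 190; 859 and 11 reads) for the 2A copy and 89.2 (54.7 to 157; 1180 and 16 reads) for the 2B copy.

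BODYGUARD 3 also had measurable reads in root at both calcium levels. Et_2A_015401 had log2 values of 4.73, 4.81, 4.57 and 4.85 in low-calcium root, against 3.35, 2.68, 3.50 and 3.44 in optimum-calcium root. Et_2B_019607 had 5.13, 4.81, 4.78 and 5.15 in low-calcium root, against 3.72, 2.56, 3.88 and 3.06 in optimum-calcium root. All low-calcium root libraries were above all optimum-calcium root libraries for both copies.

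**Figure D1:**
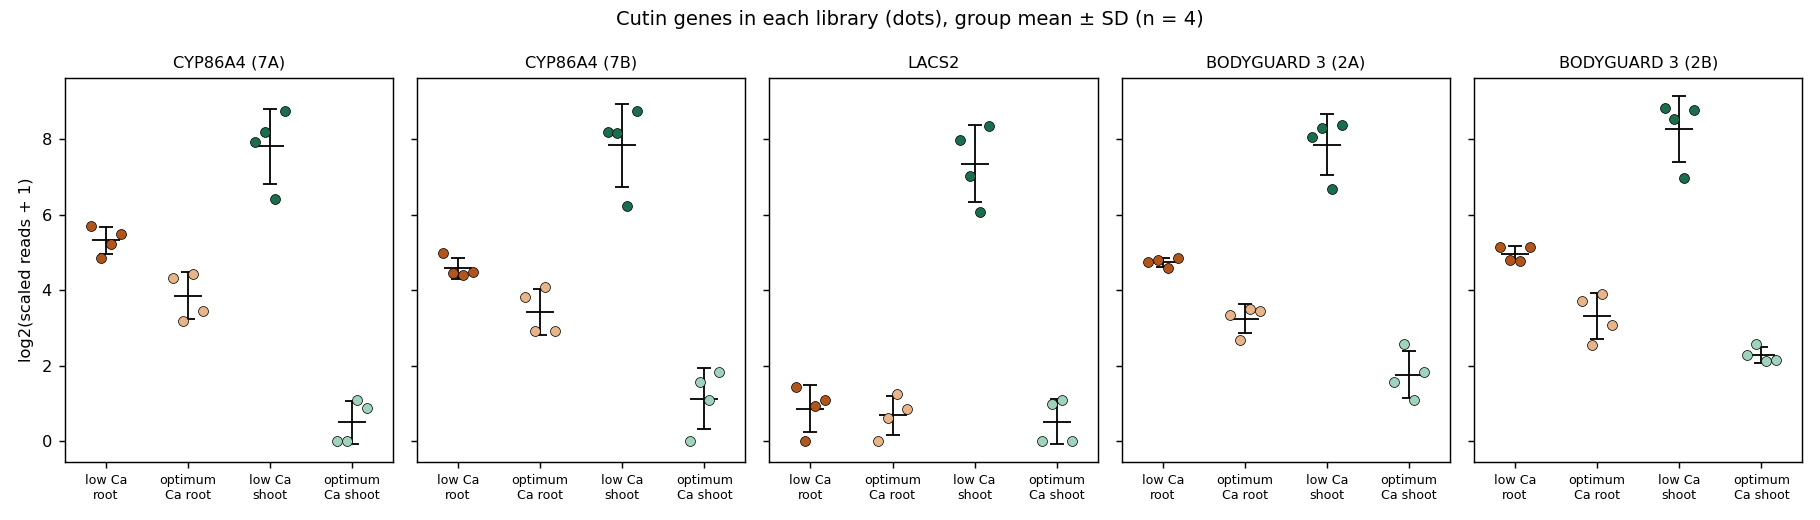
The vertical axis gives log2(scaled reads + 1) of each of the 5 genes; dots are libraries and bars the group mean ± SD (n = 4) in low-calcium root, optimum-calcium root, low-calcium shoot and optimum-calcium shoot. All 5 genes are at 6.06 or above in every low-calcium shoot library and at 2.57 or below in every optimum-calcium shoot library, and LACS2 alone is near 0 in root.

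As a share of all gene reads, the 5 together took 0.0588% ± 0.0321 in low-calcium shoot and 0.000343% ± 0.000122 in optimum-calcium shoot (SD, n = 4 each). In root they took 0.00618% ± 0.000806 under low calcium and 0.00226% ± 0.000799 under optimum calcium. The order of group means was the same for each gene: low-calcium shoot, then low-calcium root, then optimum-calcium root, then optimum-calcium shoot. Over all genes, 148 (2.54%) had their means in that order. The ranges of neighbouring groups stayed apart at every step for both CYP86A4 copies and the 2A copy of BODYGUARD 3. For the 2B copy optimum-calcium root and optimum-calcium shoot overlapped, and for LACS2 the other three groups overlapped with each other. Of all 5824 genes, 5 (0.0859%) kept all 4 groups apart in this order. The order was read from the 5 genes themselves and includes the shoot contrast that chose them, so nothing is read from these shares. The other two, named after their values were seen, are a cytochrome b561 and DOMON domain protein (Et_2A_015940) and a trihelix transcription factor described as GTL1-like (Et_1B_012825).

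In root, 2 of the 5 genes rose under low calcium by the limma test adjusted over all 5824 genes, both of them BODYGUARD 3, where 5.32% of all genes were called higher and 8.33% in either direction. The 2B copy rose by a log2 difference of 1.66 (SE 0.39, limma adjusted p 0.0234), with a mean of 4.97 ± 0.20 in low-calcium root and 3.31 ± 0.61 in optimum-calcium root (SD, n = 4 each). The 2A copy rose by 1.50 (SE 0.40, limma adjusted p 0.0332), with 4.74 ± 0.12 in low-calcium root and 3.24 ± 0.38 in optimum-calcium root. CYP86A4 did not pass: the 7A copy differed by 1.47 (SE 0.47, limma adjusted p 0.0639) and the 7B copy by 1.15 (SE 0.52, limma adjusted p 0.158). LACS2 differed by 0.18 (SE 0.62, limma adjusted p 0.869), a fitted value that rests on 3 and 4 reads and is no bound. On the deposited scale the read ratios in root were 3.23 (exact 95% interval 2.30 to 4.57) and 3.05 (2.13 to 4.41) for the 2B and 2A copies of BODYGUARD 3, and 2.73 (2.06 to 3.63) and 2.16 (1.53 to 3.08) for the 7A and 7B copies of CYP86A4. These intervals cover counting error only and leave out the spread between libraries, so they are no test of a rise. For 4 of the 5 genes every low-calcium root library was above every optimum-calcium one, which held for 12% of all genes.

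The root calls were close to the threshold. The 2A copy no longer passed without low-calcium root replicate 1 (limma adjusted p 0.0880), 2 (0.0877) or 4 (0.0841), or without optimum-calcium root replicate 1 (0.0666), 2 (0.0874) or 4 (0.0731). The 2B copy no longer passed without low-calcium root replicate 1 (limma adjusted p 0.0701), 2 (0.0554) or 4 (0.0645), or without optimum-calcium root replicate 2 (0.0633) or 4 (0.0659). With limma voom on the recovered reads neither passed (1.62, adjusted p 0.182, and 1.76, adjusted p 0.183). The 7A copy of CYP86A4 passed without optimum-calcium root replicate 3 (1.66, limma adjusted p 0.0412) or low-calcium shoot replicate 3 (1.47, limma adjusted p 0.0306), and with root libraries alone in the fit both CYP86A4 copies passed (limma adjusted p 0.0210 and 0.0432). The single epidermis marker of the lists, ROC6, was also higher in low-calcium root, with 88.5 to 115 scaled reads a library against 44.2 to 64.0 in optimum-calcium root, and its part in the root result was not tested. Of the 6 root markers none rose, 1 fell and 5 did not pass in root, where 5.32% of all genes were called higher and 3% lower. All 6 had a negative log2 difference there, from -0.72 to -1.71 with a median of -1.25. None of the 10 markers of dividing cells and none of the 12 green markers passed in root, with medians of 0.45 and 0.55. The part of these shifts in the root result was not tested.

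The paired copies share their description and their best match in Setaria, a related grass, and no other gene with values has that match. The identity to that match, per the deposited table, was 91.0% and 91.1% for the 7A and 7B copies of CYP86A4, 89.4% and 88.1% for the 2A and 2B copies of BODYGUARD 3, and 86.7% for LACS2. How reads were divided between near-identical copies is not stated, so the split within a pair is uncertain. Gene lengths were not given, so what is compared between groups is the balance of a pair and not the level of either copy. For CYP86A4 the 7A copy had more reads than the 7B copy in each of the 8 root libraries. The log2 difference of the 7A minus the 7B copy was 0.74 ± 0.25 in low-calcium root and 0.42 ± 0.12 in optimum-calcium root (SD, n = 4 each), a change of 0.32 (two-sided exact permutation p 0.0857, 0.171 adjusted over 2 pairs, where 0.0286 is the smallest possible). In low-calcium shoot the copies were level at -0.02 ± 0.18, and the 7A copy had 49.0% of the pair's reads there, against 63.3% in low-calcium root and 57.7% in optimum-calcium root. All 8 root differences (0.28 to 1.00) lay above all 4 of low-calcium shoot (-0.25 to 0.18). Optimum-calcium shoot had too few reads, 2 and 6, to place the balance.

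For BODYGUARD 3 the 2B copy had more reads than the 2A copy in all 4 groups. The 2A minus 2B difference was -0.23 ± 0.17 in low-calcium root and -0.07 ± 0.38 in optimum-calcium root, a change of -0.16 (two-sided exact permutation p 0.486, also 0.486 adjusted over 2 pairs). It was -0.42 ± 0.25 in low-calcium shoot and -0.52 ± 0.46 in optimum-calcium shoot. The 2A copy had 46.2% of the pair's reads in low-calcium root, 47.6% in optimum-calcium root, 42.1% in low-calcium shoot and 40.7% in optimum-calcium shoot. The change of balance with calcium in root thus passed the permutation test for neither pair. With 4 libraries a group this test has little power, so a change is not excluded.

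**Figure D2:**
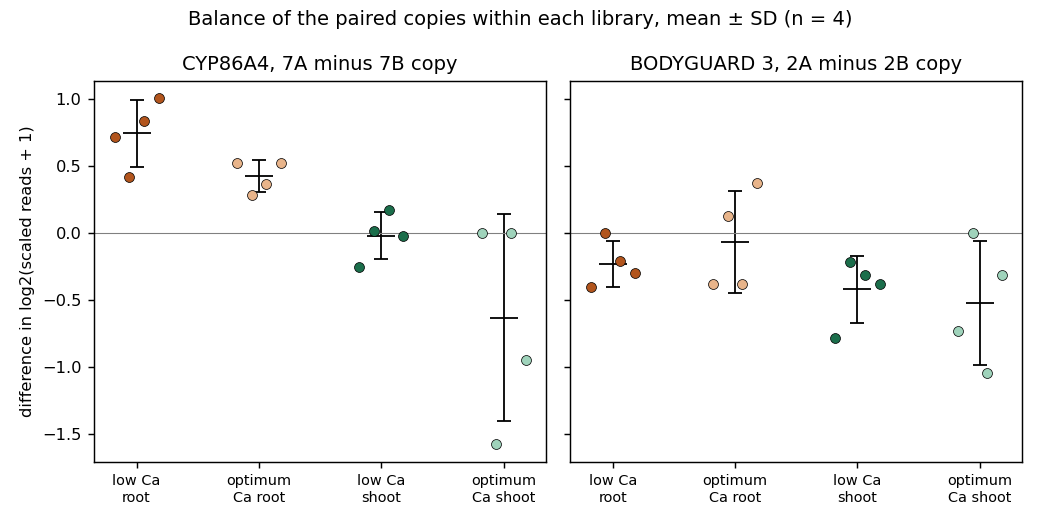
The vertical axis gives the difference in log2(scaled reads + 1) between the paired copies within a library, 7A minus 7B for CYP86A4 (left) and 2A minus 2B for BODYGUARD 3 (right); dots are libraries and bars the mean ± SD (n = 4) of each group. The CYP86A4 difference is 0.28 to 1.00 in the root libraries and -0.25 to 0.18 in low-calcium shoot.

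Within low-calcium shoot the 5 genes moved together from library to library. Replicate 3 was the lowest of the 4 for all 5 genes, and replicate 4 was the highest for 4 of them, with replicate 1 the highest for the 2B copy of BODYGUARD 3. The median deviation of the 5 from their group means was 0.34, 0.33, -1.29 and 0.92 in replicates 1 to 4. For the 777 other genes that rose at least 2-fold in shoot by the limma test it was -0.04, 0.16, -0.54 and 0.48, and for all genes it was 0.04, -0.01, 0.07 and -0.08. Replicate 3 was thus low and replicate 4 high for the other rising genes too, while the median over all genes hardly moved. Rank correlations (Spearman) over all genes did differ. The highest with an optimum-calcium shoot library was 0.917, 0.846, 0.942 and 0.806 for replicates 1 to 4. The highest with a root library was 0.491, 0.478, 0.504 and 0.550. Replicates 3 and 4 correlated at 0.893, the lowest within the group. The cause of these differences was not tested. Replicate 4, whose title names both tissues, had the lowest summed green markers (155227) and the lowest summed root markers (2645) of the shoot libraries. Without it the shoot differences were 7.01 and 6.40 for CYP86A4 (7A and 7B), 6.49 for LACS2, and 5.91 and 5.82 for BODYGUARD 3 (2A and 2B).

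Markers of dividing cells varied over the same libraries. The summed scaled reads of 10 such genes (9 kinesins of the KIN-12 and KIN-5 families and a DNA topoisomerase 2-binding protein) were 549, 374, 416 and 747 in low-calcium shoot replicates 1 to 4, against 373 to 445 in optimum-calcium shoot. Of the 10, 2 rose in shoot, none fell and 8 did not pass, where 18.5% of all genes were called higher and 20.9% lower. Nothing is read from a count so near these shares. Among those that did not pass, the shoot difference was negative for KIN-12G (Et_4B_037964, -0.20), KIN-5A (Et_9A_061659, -0.26) and the topoisomerase 2-binding protein (-0.19). It was positive for the others. Kinesin KIN-12A (Et_7B_054115), a motor of the cell division plane, had log2 values of 4.30, 2.32, 3.05 and 6.06 in low-calcium shoot, against 1.56, 0, 0 and 2.14 in optimum-calcium shoot (difference 3.01, limma adjusted p 0.0027). The other gene of that description, Et_7A_051376, differed by 1.69 (limma adjusted p 0.124) and did not pass. KIN-12F (Et_10A_001499) had 5.04, 2.32, 1.78 and 6.47 in low-calcium shoot, against 2.29, 0.99, 2.13 and 0.89 in optimum-calcium shoot (difference 2.32, limma adjusted p 0.0256, not passing without low-calcium shoot replicate 1 or 4 or optimum-calcium shoot replicate 2 or 4). Both sums above the optimum-calcium range were those of replicates 1 and 4. Without these 2 libraries, an omission chosen after seeing the data, the shoot differences of the cutin genes were 6.80 and 6.07 for CYP86A4 (7A and 7B), 6.02 for LACS2, and 5.72 and 5.46 for BODYGUARD 3 (2A and 2B). With all libraries they were 7.31, 6.70, 6.82, 6.09 and 5.99 in the same order. In shoot ROC6 had 496 to 738 scaled reads under low calcium and 327 to 530 under optimum calcium, which overlapped. The anther and pollen list held 1 gene, with 3.33 to 5.31 scaled reads in low-calcium shoot and 0 to 4.94 in optimum-calcium shoot.

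**Figure D3:**
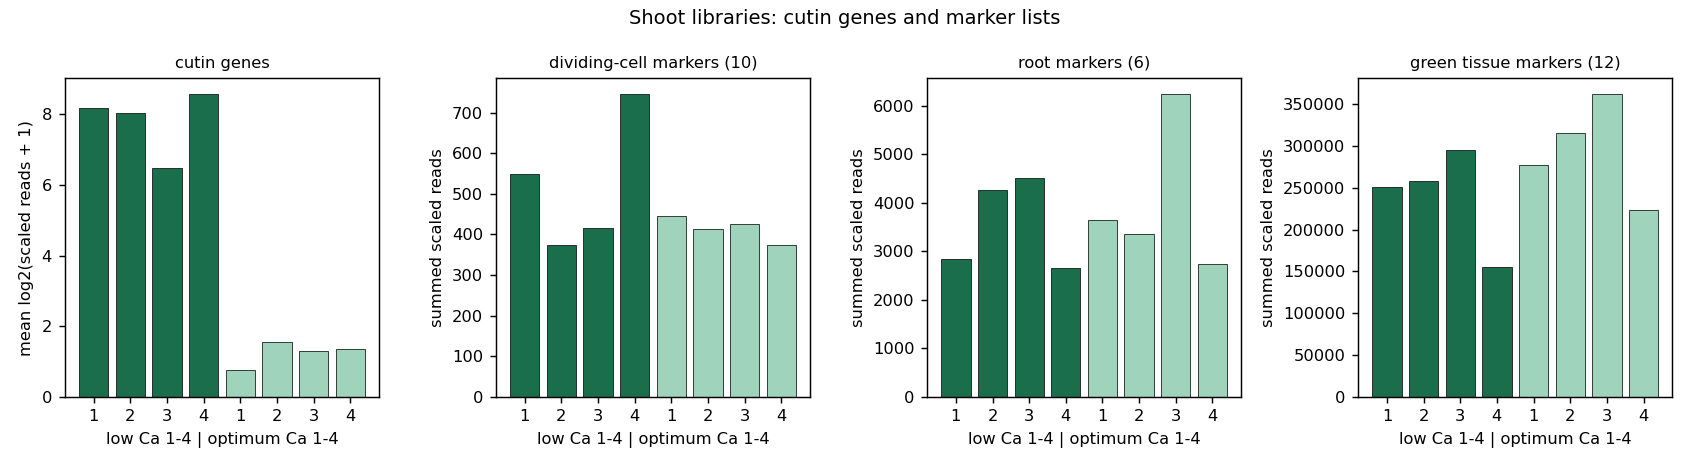
Bars give, for each shoot library, values of the 5 cutin genes and of the marker lists, each panel with its own axis starting at 0; the 4 low-calcium replicates are on the left and the 4 optimum-calcium ones on the right. The markers of dividing cells reach 549 and 747 in low-calcium replicates 1 and 4, where optimum-calcium libraries have 373 to 445.

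Other genes of cutin, wax and cuticle export, their families and regulators were taken by words in their descriptions, 50 in all. The words also took in genes of other lipid pathways, among them peroxisomal acyl-CoA synthetases and plastid acyltransferases, so the shares below are those of the word lists. In shoot, 17 of the 50 rose under low calcium, 6 fell and 27 did not pass the limma test. That is 34% higher and 12% lower, where 18.5% and 20.9% of all genes were called. The median log2 difference of the 50 was 0.36, against -0.12 over all genes. In root the test gave 8 rises (16%) and 1 fall (2%), and 41 genes did not pass, where 5.32% and 3% of all genes were called, with a median of 0.18 against -0.03 over all genes. The scaling moves the shoot split: 46.9% of all shoot calls were higher as deposited, 59.4% after median-ratio scaling and 72.9% after scaling to the total of the listed genes, as the median of all genes moved to 0.00 and 0.07. The 50 genes then gave 20 rises with 3 falls and 22 rises with 2 falls. In root the higher share of all calls was 63.9%, 74.2% and 66.9%, and the 50 genes gave 8 and 1, 8 and 1, and 7 and 1. Of the 23 shoot calls, 18 held whichever library was left out and 5 did not. Of the 9 root calls, 2 held. The root calls numbered 3, 3 and 2 without low-calcium replicates 1, 2 and 4, and 4, 3, 17 and 3 without optimum-calcium replicates 1 to 4.

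Among the enzymes that make cutin monomers, the only other CYP86 gene with values, CYP86B1 (Et_1A_005888), rose in shoot. In Arabidopsis it hydroxylates very-long-chain acids for suberin, the related polyester of root barriers. It averaged 7.64 ± 0.66 in low-calcium shoot and 4.79 ± 0.28 in optimum-calcium shoot (SD, n = 4 each), a difference of 2.85 (SE 0.38, limma adjusted p 4.85e-05). Unlike CYP86A4 it was read in every optimum-calcium shoot library (4.56 to 5.15). In root it had 7.91 ± 0.28 under low calcium and 6.73 ± 0.90 under optimum calcium (difference 1.18, limma adjusted p 0.0639), and the groups overlapped.

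The 8 other long chain acyl-CoA synthetases did not share the LACS2 pattern. In shoot none rose, 4 fell and 4 did not pass, where 18.5% of all genes were called higher and 20.9% lower. The pair described as LACS4 isoform X2 fell by 0.81 (Et_3A_024547, limma adjusted p 0.00235) and 1.05 (Et_3B_028936, limma adjusted p 2.41e-04), under all 3 scalings. The second LACS4 pair had shoot differences of -0.12 (Et_3A_024673) and 0.22 (Et_3B_029050), which did not pass. Of the 4 genes for peroxisomal LACS6, which activates fatty acids for their breakdown, Et_10B_003260 fell by 0.46 (limma adjusted p 0.0186) and Et_6A_046886 by 0.45 (limma adjusted p 0.0434) on the deposited scale. Neither passed after median-ratio scaling (0.0641 and 0.115) or total scaling (0.136 and 0.336). Under those scalings Et_10A_001114, at 0.33 and limma adjusted p 0.0760 on the deposited scale, passed as higher (0.0198 and 0.0247), and Et_6B_048721 stayed without a call at 0.10 as deposited. After total scaling a rise of Et_3B_029050 also passed (0.0452). The Et_10B_003260 call ended without low-calcium shoot replicate 4 or optimum-calcium shoot replicate 4. That of Et_6A_046886 ended without shoot replicates 2 or 4 of low calcium, 1, 2 or 4 of optimum calcium, low-calcium root replicate 2 or optimum-calcium root replicates 1 or 2. In root Et_10B_003260 fell by 0.54 (limma adjusted p 0.0334), a call that ended without replicate 1, 2 or 4 of either root group.

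Of 7 acyltransferases, 2 rose and 2 fell in shoot, where 18.5% of all genes were called higher and 20.9% lower. In root 1 of the 7 rose, where 5.32% of all genes were called higher. With so few genes, nothing is read from these counts. GPAT6, which in Arabidopsis joins cutin monomers to glycerol, rose in shoot by 3.85 in its copy Et_1B_011034 (SE 0.54, limma adjusted p 7.98e-05), with 7.05 ± 0.97 in low-calcium shoot and 3.20 ± 0.66 in optimum-calcium shoot. The other gene of that description, Et_4B_038440, had a shoot difference of 0.45 (limma adjusted p 0.211) and a root difference of -0.16, neither passing. A probable GPAT3 (Et_6A_047179) rose in both tissues, by 1.98 in shoot (limma adjusted p 0.0016) and 2.00 in root (limma adjusted p 0.0136). The pair described as GPAT3 (Et_5A_042320 and Et_5B_044989) fell in shoot by 0.58 and 0.44 (limma adjusted p 0.0149 and 0.0375). These falls did not pass after total scaling (0.138 and 0.274), and the second did not after median-ratio scaling (0.0890). The first ended without low-calcium shoot replicate 2, the second without low-calcium shoot replicate 2 or 4 or optimum-calcium shoot replicate 1, 3 or 4. The list also holds 2 copies of a plastid acyltransferase of membrane lipid synthesis, which did not pass.

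GDSL esterases/lipases are the family to which the tomato cutin synthase belongs. Where 18.5% of all genes were called higher in shoot and 5.32% in root, 4 of 10 rose in shoot and 1 in root. One of them, Et_3B_030422 (GDSL esterase/lipase At1g33811), had low values everywhere but in low-calcium shoot, like LACS2. It had 6.30 to 8.17 in low-calcium shoot and 0.89 to 2.13 in optimum-calcium shoot (difference 5.98, SE 0.69, limma adjusted p 1.46e-05), and 0 to 2.61 over the root libraries. GDSL esterase/lipase At1g74460 (Et_2B_022797) rose by 2.80 in shoot (limma adjusted p 4.24e-05) and differed by 1.14 in root (limma adjusted p 0.0640). GDSL esterase/lipase At5g45910 (Et_3A_023764) rose in root by 1.23 (limma adjusted p 0.0236; lost without low-calcium root replicate 1, 2 or 4 or optimum-calcium root replicate 2 or 4) and had a shoot difference of 0.14.

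Wax genes gave the most rises, 9 of 17 in shoot and 4 of 17 in root, with no fall. Of all genes, 18.5% were called higher and 20.9% lower in shoot, and 5.32% and 3% in root. ECERIFERUM 3 (Et_2A_017041), which in Arabidopsis acts in forming the alkanes of wax, rose by 4.89 in shoot (SE 0.49, limma adjusted p 4.27e-06). Its log2 values were 7.29 to 8.32 in low-calcium shoot and 1.97 to 3.70 in optimum-calcium shoot, and in root 1.08 to 2.85 under low calcium and 1.91 to 2.92 under optimum calcium. The chain-lengthening enzyme 3-ketoacyl-CoA synthase 20 (Et_6B_048602) rose by 3.71 in shoot (limma adjusted p 9.95e-05). This rests on 8 to 27 reads a library in low-calcium shoot and 0 to 1 in optimum-calcium shoot. Its mean of 4.23 in low-calcium shoot was below those of low-calcium root (6.52) and optimum-calcium root (5.17). Another such enzyme, 3-ketoacyl-CoA synthase 1 (Et_4B_039952), rose by 1.18 in root (limma adjusted p 0.0216) with 0.17 in shoot. The reductase of the same cycle (Et_1B_013475) rose by 1.11 in shoot (limma adjusted p 1.33e-04). Of the ECERIFERUM 26-like genes, which act on chain length in Arabidopsis, Et_7B_054727 rose by 1.79 in root (limma adjusted p 0.0061) and Et_4A_033771 by 1.29 in root and 2.23 in shoot (limma adjusted p 0.0399 and 2.63e-04). The root calls of Et_4B_039952 and Et_4A_033771 ended without replicate 1, 2 or 4 of either root group, and that of Et_4A_033771 also without optimum-calcium shoot replicate 2.

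Of 5 export genes, a non-specific lipid-transfer protein 1-like (Et_1A_007284) rose in both tissues, by 1.18 in shoot (limma adjusted p 0.0127) and 1.42 in root (limma adjusted p 0.0236; lost without replicate 1, 2 or 4 of either root group). Over all genes, 18.5% in shoot and 5.32% in root were called higher. The 4 genes described as ABCG11, an exporter of cutin and wax, passed in neither tissue. One of them, Et_4B_037259, had differences of 0.00 in shoot and 1.02 in root. Of the 2 regulators, ROC6 (Et_2A_016732), an epidermal homeobox factor, rose in root by 0.88 (limma adjusted p 0.0138; lost without low-calcium root replicate 4) and differed by 0.40 in shoot (limma adjusted p 0.0813). It passed in shoot after median-ratio scaling (0.0395) and after total scaling (0.0228). MYB30 (Et_1B_013366) had differences of 0.82 in both tissues and passed in neither.

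**Figure D4:**
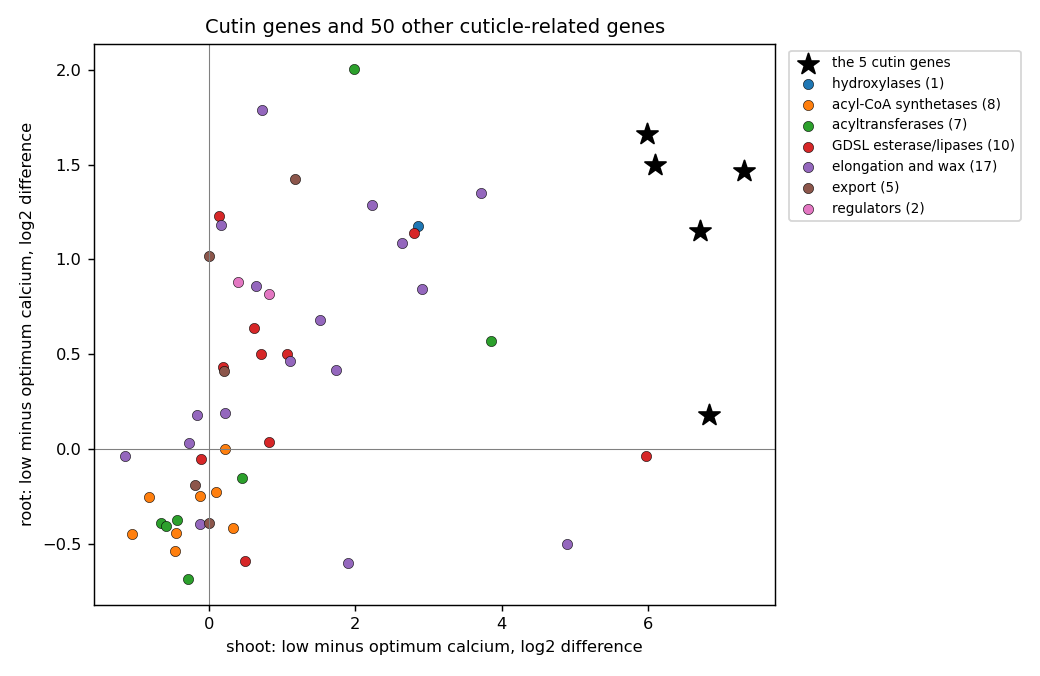
Each point is a gene, with the low minus optimum calcium difference on the log2 scale in shoot on the horizontal axis and in root on the vertical axis; stars are the 5 cutin genes and coloured dots the other 50 by list. The 5 cutin genes lie at 5.99 to 7.31 in shoot and 0.18 to 1.66 in root.

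The genes most like the 5 in pattern were found over all 16 libraries, by the root-mean-square difference between a gene and the mean of the 5, each gene first centred on its own mean log2 value. The members themselves were at 0.34 to 0.83, and LACS2 at 1.19. The nearest other gene was a putative leucine-rich repeat receptor-like kinase (Et_9A_061967) at 0.88. It had 8.32 ± 1.05 in low-calcium shoot and 2.97 ± 0.53 in optimum-calcium shoot, and 6.66 ± 0.51 in low-calcium root and 4.95 ± 1.13 in optimum-calcium root (SD, n = 4 each). Laccase-4 (Et_3A_025399), of a family of phenol oxidases, followed at 1.05, with 9.70 ± 0.73 in low-calcium shoot and 5.27 ± 1.21 in optimum-calcium shoot. The cytochrome b561 and DOMON domain protein named above was at 1.08. The long-chain-alcohol oxidase FAO2 (Et_1A_005936), which oxidizes fatty alcohols, was at 1.10, with 11.08 ± 0.31 in low-calcium shoot and 7.21 ± 0.86 in optimum-calcium shoot.

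The others were a group 3 late embryogenesis abundant protein (Et_4A_034454, 1.16), fasciclin-like arabinogalactan protein 11 (Et_3A_027307, 1.17), the aspartic proteinase nepenthesin-1 (Et_4A_032457, 1.17) and receptor-interacting serine/threonine-protein kinase 4 (Et_3A_025321, 1.18). All 8 were picked for their likeness in these values, so it is given with no test. Their low minus optimum calcium differences were 3.68 to 7.16 log2 units in shoot and -0.24 to 1.71 in root.

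**Figure D5:**
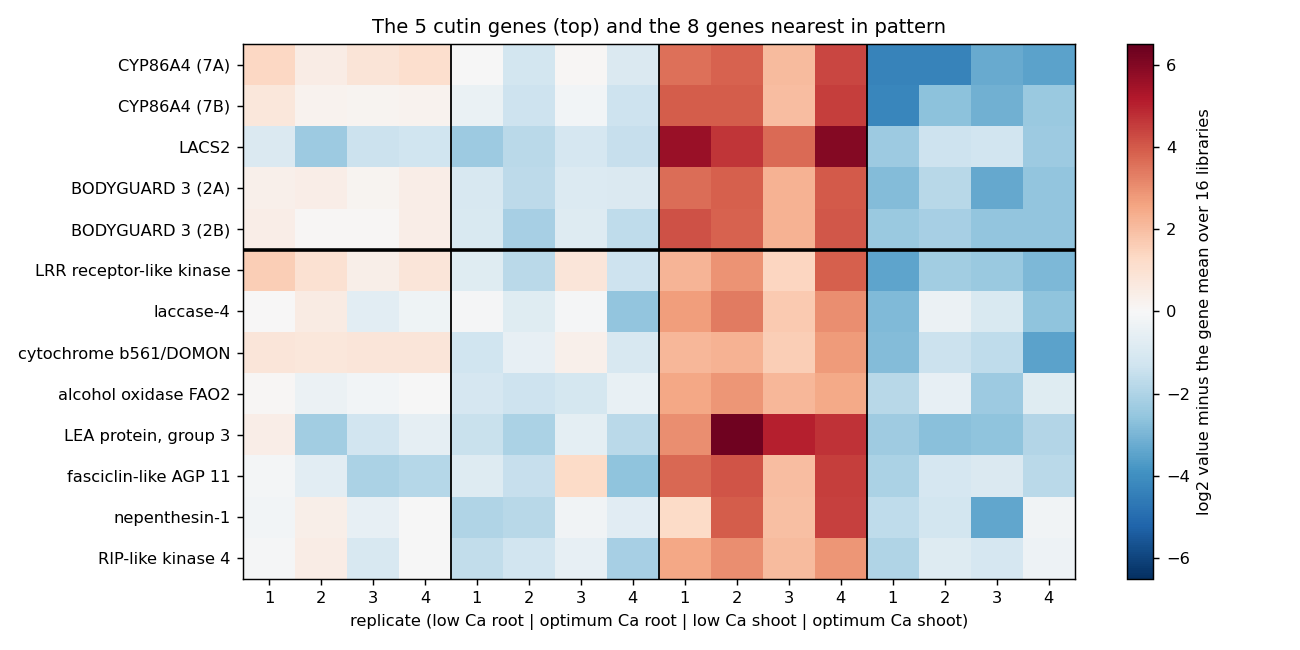
Rows are the 5 cutin genes (top) and the 8 nearest genes, columns the 16 libraries by group, and colour the log2 value minus the gene's mean over the 16 libraries. Low-calcium shoot stands out in every row, with replicate 3 paler for the 5 cutin genes.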

How the data were processed

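The deposited table gives, per the file headers, small RNA read counts per length class, not used here, and values for 5824 genes, each with a best match in another grass, its percent identity as the authors deposited it, and a description. No header or label names the aligner, genome build, counter or scaling, and 5634 further listed IDs have no values. The gene values are log2 as deposited by the authors. Undoing the logarithm and subtracting 1 gave whole multiples of a step set by the library (tolerance 0.1 of a step) for 100% of 93184 values. They are therefore log2(scaled reads + 1), and whole reads were recovered. Fold changes of genes with few reads are understated on this scale. Tissue letter and library number tied each column to its library, and a letter H in the optimum-calcium headers is unexplained. No per-sample column of the gene block was left unused (0).

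The design was written for the deposited log2 values. limma 3.58.1 (R 4.3.3) with an intensity trend was fitted to all 16 libraries, with 1 coefficient per group, Benjamini-Hochberg adjustment over 5824 genes and a threshold of 0.05, and was tested on simulated data. Contrasts were low minus optimum calcium in each tissue and their difference. Copy balance was tested by exact permutation in Python 3.11.15 (scipy 1.17.1, numpy 2.4.6, pandas 2.3.3, matplotlib 3.10.9). Read ratios have Clopper-Pearson intervals at 95%, which cover counting error only. The 5 genes, the word lists and the markers were chosen with earlier results of these data known. Named genes were the 5, other genes of their families, the 8 nearest in pattern, and from each list the 2 with the highest mean and, per tissue, the 2 largest changes past the threshold. Alternatives were 2 other scalings, a read filter, an offset of 0.1, a replicate block, single-tissue fits, limma voom, leaving out each library and, added later, leaving out 2 shoot libraries.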

Additional observations from a re-analysis of the deposited data

Results flagged for a closer look

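For the 5 cutin genes and the other genes named by rule, 160 groups of 4 libraries were examined for a library far from the other three, and 8 had one. Chance gives about 1 in 20 groups. Among the cutin genes, the 7B copy of CYP86A4 (Et_7B_055862) had its highest low-calcium root value in replicate 1 (4.98, others 4.40 to 4.47), and the 2B copy of BODYGUARD 3 (Et_2B_019607) had its lowest low-calcium shoot value in replicate 3 (6.98, others 8.52 to 8.83). Low-calcium root replicate 1 was also high for LACS6 (Et_10B_003260, 8.51, others 8.27 to 8.30) and for the probable GPAT3 (Et_6A_047179, 8.22, others 6.63 to 6.83). Low-calcium root replicate 3 was low for the very-long-chain 3-oxoacyl-CoA reductase 1 (Et_1B_013475, 8.71, others 9.27 to 9.31). Optimum-calcium shoot replicate 3 was low for LACS6 (Et_6A_046886, 6.74, others 7.29 to 7.37) and for GDSL esterase/lipase At1g28600 (Et_3A_024529, 8.41, others 8.81 to 8.83), and high for GDSL esterase/lipase At1g33811 (Et_3B_030422, 2.13, others 0.89 to 0.99).

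The calcium response differed between root and shoot by the limma test of the difference, root minus shoot, for 4 of the 27 genes named from the families and lists. It was -6.01 for GDSL esterase/lipase At1g33811 (Et_3B_030422, SE 0.97, limma adjusted p 0.00189), -5.39 for ECERIFERUM 3 (Et_2A_017041, SE 0.69, limma adjusted p 4.44e-04), -3.28 for GPAT6 (Et_1B_011034, SE 0.76, limma adjusted p 0.0157) and -0.75 for LACS6 (Et_10A_001114, SE 0.20, limma adjusted p 0.0322). Of the 50 genes of the lists, 6 had a more positive response in shoot by this test and none in root, where 325 and 106 of 5824 genes did. Besides the 4, these were O-acyltransferase WSD1 (Et_4B_036831, -2.49, limma adjusted p 1.44e-04) and an ECERIFERUM 26-like gene (Et_4B_037922, -2.06, limma adjusted p 0.0430). The WSD1 gene differed by 1.89 in shoot and -0.60 in root. The 5 cutin genes and the 8 genes nearest to them in pattern are left out of this comparison, since their shoot values entered their choice.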

How the results depend on the processing

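The shoot differences of the 5 cutin genes kept their direction under every alternative. Nothing is read from that, since the 5 were chosen by this contrast and their shoot groups lie far apart. An offset of 0.1 in place of 1 gave 9.40, 7.96 and 8.89 for CYP86A4 (7A, 7B) and LACS2. In root, with root libraries alone, the differences of CYP86A4 passed (7A 1.47, 7B 1.15) and 831 genes were called in place of 485. With limma voom BODYGUARD 3 did not pass (2A 1.62, 2B 1.76). Leaving out each library gave root differences of 1.25 to 1.66 (CYP86A4, 7A), 0.98 to 1.36 (7B), 1.31 to 1.59 (BODYGUARD 3, 2A), 1.41 to 1.85 (2B) and -0.0499 to 0.47 (LACS2, reversed at -0.01 without low-calcium root replicate 1 and at -0.0499 without optimum-calcium root replicate 1). The limma adjusted p ran from 0.0306 to 0.170, 0.0851 to 0.339, 0.0166 to 0.0880 and 0.00779 to 0.0701 for CYP86A4 and BODYGUARD 3 in this order. Root calls over all genes ranged from 66 to 816 and those of the pathway lists from 2 to 17. Shoot calls ranged from 1576 to 2547 over all genes and from 19 to 25 for the lists. Without low-calcium shoot replicates 1 and 4 together, 1191 genes were called in shoot in place of 2292. The change of copy balance in root was 0.31 for CYP86A4 and -0.17 for BODYGUARD 3 with an offset of 0.1, and 0.23 to 0.43 and -0.27 to -0.02 on leaving out each root library, where the exact permutation test cannot go below 0.0571. The balance was not computed under the other alternatives. With a replicate block, 363 genes were called in root and 7 of the lists, the adjusted p of the members was 0.0866 (7A), 0.196 (7B), 0.881 (LACS2), 0.0397 (2A) and 0.0329 (2B) in limma, and no member's call changed. Deviations of same-numbered libraries correlated at -0.40 to 0.08 in root and -0.05 to 0.25 in shoot, and 1 of 4 and 2 of 4 matched best with their own number. The median correlation in shoot was 0.129 for the same number and 0.007 for other numbers, and in root 0.003 for both. With 4 libraries a group this check cannot settle whether the numbers pair the samples. The filter of 10 reads in 4 libraries removed no gene. The cause of these shifts was not tested. Depth limits LACS2 in root and all 5 genes in optimum-calcium shoot, where values rest on 0 to 5 reads a library.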
